A study of Homo sapiens with 16 samples.

Results

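Fibronectin (FN1), SPARC and 8 other genes of the mesenchymal cell state were followed by RNA sequencing in 2 human neuroblastoma cell lines treated with epigenetic drugs. The 10 genes are FN1, SPARC, TGFBI, VIM, CD44, NT5E, PRRX1, YAP1, SNAI2 and TWIST1. They were chosen by name as matrix and mesenchymal-type genes other than collagens, with earlier results of these data known. Counts of them called, set beside the share of all tested genes, therefore describe the chosen genes and are no test of the set. They make up 10 of the 23459 genes in the count table. All 10 passed the filter on low counts, which left 15967 genes tested. TGFBI passed only through drug-treated libraries, and PRRX1 and YAP1 only through IMR5-75 libraries.

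The lines were Be(2)-C and IMR5-75, both established MYCN-amplified lines. Each line received DAC at 1 µM over 72 h, EPZ-6438 at 1 µM over 96 h, DAC and EPZ-6438 together at those doses and times, or the solvent DMSO as control. DAC, left as an abbreviation in the labels, is the common short name of decitabine, which depletes DNA methyltransferases. EPZ-6438 (tazemetostat) inhibits EZH2, the enzyme that methylates histone H3 at lysine 27. Each of the 8 groups held 2 libraries. Whether a pair came from separate cultures is not in the labels, so a p-value reflects library-to-library spread alone and that spread could be technical.

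Neuroblastoma cells occur in a noradrenergic state, which keeps the transcription factors and enzymes of sympathetic neurons, and in a mesenchymal state that resembles neural crest or stromal cells. Mesenchymal-type cells lay down fibronectin and other matrix proteins, carry surface proteins such as CD44 and CD73 (the product of NT5E), hold vimentin filaments and use PRRX1 and YAP1 as regulators. SNAI2 and TWIST1 belong to the transcription factors that drive epithelial-mesenchymal transition and neural crest migration.

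The 16 libraries held 9539557 to 14032155 counts, and a floor of 3 counts equalled 0.206 to 0.315 CPM (counts per 1000000) in a library. Levels below are CPM after TMM scaling, and each list of values gives replicate 1 and then replicate 2. In Be(2)-C, 7 of 7 noradrenergic neuroblastoma markers (PHOX2A, HAND2, GATA3, ISL1, TH, DBH and MYCN) were above the floor in every group, and in IMR5-75 6 or 7 were. Their summed level was 5096 to 5397 CPM under both drugs and 6687 to 6747 CPM under DMSO in Be(2)-C, and 1783 to 1814 CPM under both drugs and 2413 to 2792 CPM under DMSO in IMR5-75. Most of this sum was MYCN, at 3913 CPM under both drugs and 5239 CPM under DMSO in Be(2)-C, and at 1190 CPM under both drugs and 1872 CPM under DMSO in IMR5-75. Some other markers stood level or the other way, with PHOX2A at 308 CPM under both drugs and under DMSO in Be(2)-C, and TH there at 78.9 CPM under both drugs and 55.7 CPM under DMSO.

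The 8 fibroblast markers summed to 281 to 291 CPM under both drugs and 276 to 280 CPM under DMSO in Be(2)-C, with 6 over the floor in either group, MFAP5 at 0 in both and PDPN at 0 under DMSO. In IMR5-75 they summed to 120 to 137 CPM under both drugs and 163 CPM under DMSO, with 5 over the floor under both drugs, 6 under DMSO and MFAP5 at 0 in both. The lower IMR5-75 sum was that of PDGFRA, at 66.3 CPM under both drugs and 142 CPM under DMSO. In IMR5-75, 4 other fibroblast markers were higher under both drugs than under DMSO, with LUM at 38.3 CPM under both drugs and 6.86 CPM under DMSO, THY1 at 12.8 CPM under both drugs and 8.42 CPM under DMSO, PDGFRB at 8.27 CPM under both drugs and 5.76 CPM under DMSO, and DCN at 2.77 CPM under both drugs and 0.200 CPM under DMSO. In Be(2)-C, PDGFRA stood at 19.0 CPM under both drugs and 0.684 CPM under DMSO, LUM at 19.9 CPM under both drugs and 9.17 CPM under DMSO, and DCN at 31.7 CPM under both drugs and 61.2 CPM under DMSO. Epithelial markers summed to 26.7 to 28.4 CPM under both drugs and 4.87 to 7.25 CPM under DMSO in Be(2)-C, and Schwann and glial markers to 32.4 CPM under both drugs and 9.58 to 10.8 CPM under DMSO in IMR5-75. In those groups 4 of 5 epithelial markers under both drugs and 3 of 5 under DMSO, and 5 of 6 glial markers under both drugs and under DMSO, were over the floor. The same glial markers summed to 12.4 to 13.4 CPM under both drugs and 6.43 to 8.16 CPM under DMSO in Be(2)-C, with 5 of 6 over the floor under both drugs and 4 under DMSO, and FOXD3 at 0 under both drugs. In IMR5-75, haematopoietic markers summed to 9.83 to 10.6 CPM under both drugs and 4.94 to 5.13 CPM under DMSO, endothelial markers to 4.33 to 6.25 CPM under both drugs and 1.68 to 2.36 CPM under DMSO, and epithelial markers to 3.60 to 3.71 CPM under both drugs and 0.841 to 1.40 CPM under DMSO. Over the floor were 5 of 7 haematopoietic markers under both drugs and 3 under DMSO, 6 of 6 endothelial markers under both drugs and 4 under DMSO, and 2 of 5 epithelial markers under both drugs and 3 under DMSO. Under DMSO, CD3E, LYZ and KRT8 were at 0 there, and under both drugs KRT19 was. Single genes made up most of some of these sums. In Be(2)-C, KRT19 stood at 17.7 CPM under both drugs and 4.55 CPM under DMSO. In IMR5-75, CD68 stood at 7.18 CPM under both drugs and 4.45 CPM under DMSO. Some markers went the other way. CDH1 in Be(2)-C was at 0.0445 CPM under both drugs and 0.0906 CPM under DMSO, and SOX10 in IMR5-75 at 0.108 and 0.542 CPM. The part of these sums in the results was not tested, and in bulk RNA fewer cells of a type and less RNA per cell cannot be told apart.

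Without drug, the genes split between the lines. FN1, SPARC, VIM, PRRX1, YAP1 and SNAI2 were lower in Be(2)-C than in IMR5-75, while CD44, NT5E and TWIST1 were higher in Be(2)-C, and TGFBI was near the floor in both. The call needed a Benjamini-Hochberg adjusted p under 0.05 in edgeR's quasi-likelihood test, and 9 of the 10 genes passed it in this comparison of DMSO libraries, where 63.2% of all tested genes did. The log2 difference, with its standard error here and below, was -3.97 ± 0.16 for FN1, -3.37 ± 0.12 for SPARC and -1.75 ± 0.13 for VIM. It was 3.42 ± 0.21 for CD44, 5.44 ± 0.15 for NT5E and 1.64 ± 0.13 for TWIST1. The widest gap was that of PRRX1, which had 1 count over both Be(2)-C DMSO libraries and 2333 counts over both IMR5-75 DMSO libraries, a depth-scaled ratio of 0.000498 with a 95% counting interval of 1.26e-05 to 0.00278. Without Be(2)-C DMSO replicate 1, the only one of the pair with a count, PRRX1 was at 0 in that group and at least 333-fold lower, against a floor of 3 counts over the group, and without replicate 2 the ratio was 0.000989. YAP1 differed by -6.88 ± 0.30 on the log2 scale. SNAI2 differed by -0.58 ± 0.21 (adjusted p = 0.019 by edgeR), a call that ended without Be(2)-C DMSO replicate 1 (adjusted p = 0.107), Be(2)-C DMSO replicate 2 (adjusted p = 0.0531) or IMR5-75 DMSO replicate 1 (adjusted p = 0.38).

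**Figure D1:**
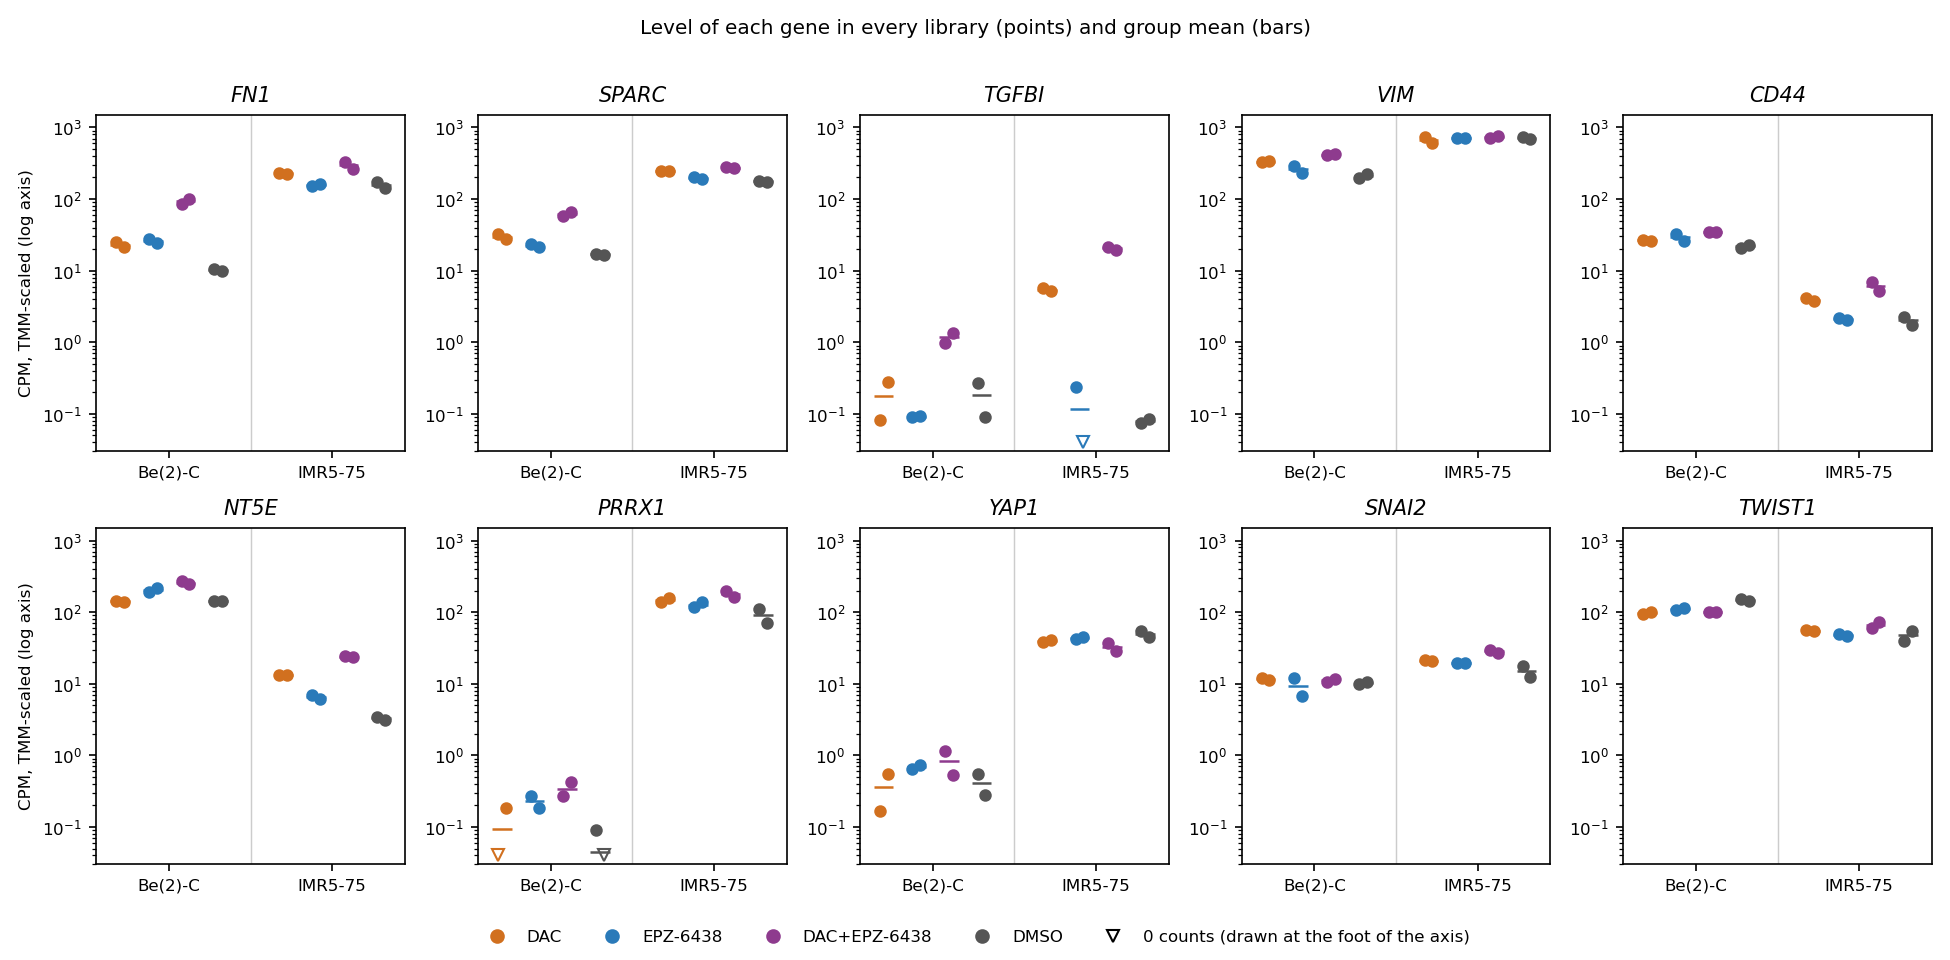
CPM after TMM scaling (log axis) of the 10 genes in each of 16 libraries (points), with the group mean as a bar, for DAC, EPZ-6438, both drugs and DMSO in each line. FN1 in Be(2)-C sits at 84.4 and 101 CPM under both drugs, above its other Be(2)-C libraries, while PRRX1 and YAP1 stay near or under 1 CPM in Be(2)-C, and heights are not comparable between genes because gene lengths were not used.

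Under the drugs, the genes that passed the test differed between the lines, and the combination changed the most of them in either line. In Be(2)-C, DAC changed 4 genes, where 6.7% of all tested genes changed (3.73% higher and 2.97% lower), with FN1, SPARC and VIM higher and TWIST1 lower. EPZ-6438 changed 3 genes in Be(2)-C, against 10.2% of all tested genes (5.35% higher and 4.85% lower), with FN1 and NT5E higher and TWIST1 lower. Both drugs together changed 7 genes in Be(2)-C, against 23.7% of all tested genes (13.2% higher and 10.4% lower), with FN1, SPARC, TGFBI, VIM, CD44 and NT5E higher and TWIST1 lower. The median log2 change of the 10 genes in that comparison was 1.01, beside 0.05 over all tested genes. That median takes in 2 uncalled genes of few counts. PRRX1 was at 2.64 on 7 counts under both drugs and 1 under DMSO, and YAP1 at 1.06 on 18 and 9 counts.

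In IMR5-75, DAC raised 6 of the 10 genes, namely FN1, SPARC, TGFBI, CD44, NT5E and PRRX1, against 33.7% of all tested genes changed (19.9% higher and 13.8% lower). EPZ-6438 changed 1 gene in IMR5-75, NT5E, against 1.98% of all tested genes (1.63% higher and 0.344% lower). Both drugs together changed 9 genes in IMR5-75, against 46.2% of all tested genes (25.7% higher and 20.4% lower), with YAP1 lower, the other 8 called genes higher and VIM the only gene not called. The median log2 change of the 10 genes was 0.90 under both drugs, beside 0.03 over all tested genes. Comparisons within a line share the same DMSO libraries, so their calls are not independent of each other. The shares over all tested genes also rest on few libraries. In Be(2)-C, leaving out any 1 library gave 297 to 583 called genes for DAC, against 1069 with all. For EPZ-6438 the count was 578 without DMSO replicate 1 and 668 without DMSO replicate 2, against 1630 with all, and up to 1256 without an EPZ-6438 library. For both drugs it was 2097 without DMSO replicate 1, 2177 without DMSO replicate 2 and 2217 without combination replicate 2, against 3777 with all, and 2645 without combination replicate 1. In IMR5-75, EPZ-6438 gave 32 called genes without DMSO replicate 2, 60 without EPZ-6438 replicate 1 and 97 without EPZ-6438 replicate 2, against 316 with all, and 323 without DMSO replicate 1. The IMR5-75 counts were 3796 to 4358 for DAC, against 5374 with all, and 5766 to 6141 for both drugs, against 7370 with all.

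**Figure D2:**
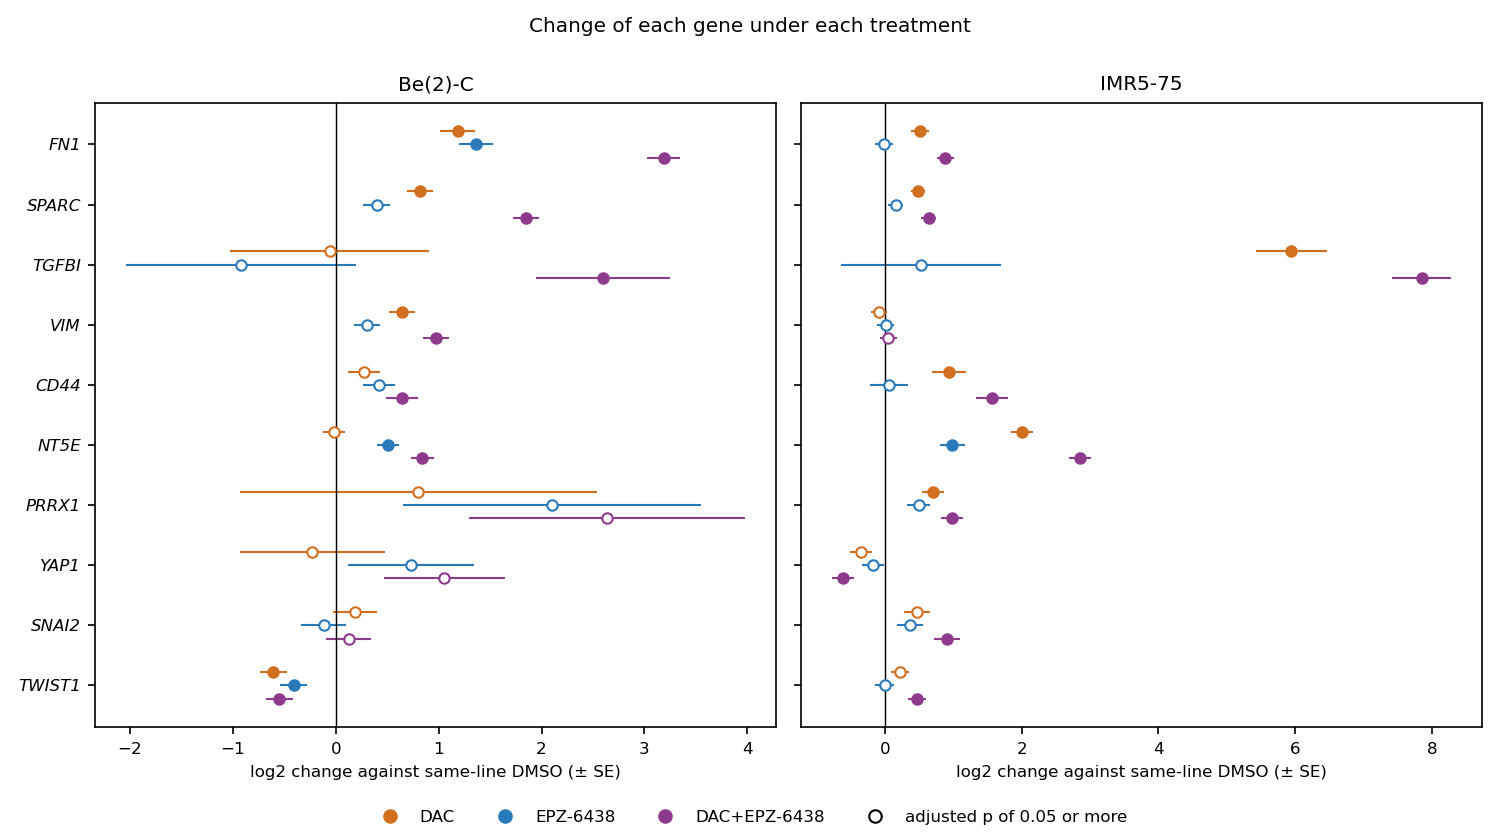
Log2 change of each gene against DMSO of the same line (horizontal axis, bars ± SE of the edgeR fit) under DAC, EPZ-6438 and both drugs, with filled points for an adjusted p under 0.05 and open points otherwise. FN1 reaches 3.19 under both drugs in Be(2)-C, and TGFBI lies far right of the other genes in IMR5-75 under DAC and under both drugs. The TGFBI point for EPZ-6438 in IMR5-75 rests on 3 counts against 2 under DMSO and gives no usable fold. The wide bars of TGFBI, PRRX1 and YAP1 in Be(2)-C come with counts of 0 to 13 per library.

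FN1 encodes fibronectin, the secreted glycoprotein that cells assemble into fibrils through integrins. FN1 in Be(2)-C stood at 24.8 and 21.3 CPM under DAC, 27.8 and 24.7 CPM under EPZ-6438, 84.4 and 101 CPM under both drugs, and 10.5 and 9.82 CPM under DMSO. Every treated Be(2)-C library was above both DMSO libraries, and both combination libraries were above all single-drug libraries. The log2 change against DMSO was 1.18 ± 0.17 for DAC, 1.37 ± 0.17 for EPZ-6438 and 3.19 ± 0.16 for both (edgeR adjusted p = 0.000123, 2.72e-05 and 3.52e-11).

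In IMR5-75, FN1 stood at 232 and 224 CPM under DAC, 153 and 163 CPM under EPZ-6438, 326 and 262 CPM under both drugs, and 175 and 143 CPM under DMSO. The EPZ-6438 values lay between the DMSO values, and the DAC and combination values lay above them. FN1 rose by 0.52 ± 0.13 on the log2 scale under DAC (edgeR adjusted p = 0.00408) and by 0.89 ± 0.13 under both drugs (edgeR adjusted p = 1.14e-05). The DAC call ended without IMR5-75 DMSO replicate 2 (adjusted p = 0.0956). Even under both drugs, FN1 in Be(2)-C stayed below the lower IMR5-75 DMSO library. FN1 shares a stretch of the genome with ATIC, which is also in the count table, and how the counting used strand is not stated in the sources used here, which leaves reads of the overlap unassigned between them.

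SPARC encodes osteonectin, a secreted matricellular protein that binds collagen and calcium and modulates how cells attach to matrix. SPARC in Be(2)-C stood at 32.5 and 27.4 CPM under DAC, 23.3 and 21.4 CPM under EPZ-6438, 57.5 and 64.9 CPM under both drugs, and 17.3 and 16.6 CPM under DMSO. The 4 groups did not overlap, in the order both drugs, DAC, EPZ-6438 and DMSO from high to low. SPARC rose by 0.82 ± 0.13 on the log2 scale under DAC (edgeR adjusted p = 0.000329) and by 1.85 ± 0.12 under both drugs (edgeR adjusted p = 3.43e-09). Under EPZ-6438 the log2 change was 0.40 ± 0.13 and missed the call (edgeR adjusted p = 0.0546), which the DESeq2 Wald test made (adjusted p = 0.0468).

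In IMR5-75, SPARC stood at 245 and 248 CPM under DAC, 201 and 192 CPM under EPZ-6438, 278 and 271 CPM under both drugs, and 179 and 173 CPM under DMSO. The groups again did not overlap and kept the same order as in Be(2)-C. The log2 change was 0.49 ± 0.11 under DAC (edgeR adjusted p = 0.00129), 0.64 ± 0.11 under both drugs (edgeR adjusted p = 4.68e-05) and 0.16 ± 0.11 under EPZ-6438 (edgeR adjusted p = 0.489).

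TGFBI encodes a matrix protein that links integrins and collagen and is named for its induction by TGF-beta. In IMR5-75, TGFBI had 80 and 67 counts under DAC, 3 and 0 counts under EPZ-6438, 290 and 286 counts under both drugs, and 1 and 1 counts under DMSO. Scaled for depth this was 5.66 and 5.22 CPM under DAC and 21.3 and 19.7 CPM under both drugs, while the EPZ-6438 and DMSO groups were at or under the floor of 3 counts. The ratio to DMSO was 69.4 under DAC, with a 95% counting interval of 18.9 to 579, and 260 under both drugs, with an interval of 71.7 to 2153 (edgeR adjusted p = 1.87e-08 and 1.24e-11). No fold is given for EPZ-6438 against DMSO, since both groups held 3 counts or fewer in all.

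TGFBI in Be(2)-C had 1 and 3 counts under DAC, 1 and 1 counts under EPZ-6438, 11 and 13 counts under both drugs, and 3 and 1 counts under DMSO. The combination libraries were the only ones above 3 counts. The log2 change under both drugs was 2.60 ± 0.65 (edgeR adjusted p = 0.00581). Without Be(2)-C DMSO replicate 1 it was 3.50, without DMSO replicate 2 the call ended at 2.05 (adjusted p = 0.0789), and without combination replicate 2 it ended at 2.35 (adjusted p = 0.0508).

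The promoters of the matrix genes are shown because decitabine leads to loss of methylation at CG dinucleotides. Those of PRRX1 and YAP1 are shown because these genes had almost no counts in Be(2)-C. FN1 and SPARC rose under DAC and under both drugs in both lines, and FN1 also rose under EPZ-6438 in Be(2)-C. Methylation was not measured in these libraries, and its part in the levels of these genes was not tested. Each window runs from 250 bases before to 50 bases after the annotated gene start, so it covers the upstream region and the beginning of the first exon, from RefSeq on GRCh38.p14, written 5′ to 3′ on the gene's strand with every CG in capitals. FN1 lies at chr2:215436019-215436318 (minus strand), SPARC at chr5:151686866-151687165 (minus strand), TGFBI at chr5:136028738-136029037 (plus strand), PRRX1 at chr1:170663881-170664180 (plus strand) and YAP1 at chr11:102110197-102110496 (plus strand).
FN1: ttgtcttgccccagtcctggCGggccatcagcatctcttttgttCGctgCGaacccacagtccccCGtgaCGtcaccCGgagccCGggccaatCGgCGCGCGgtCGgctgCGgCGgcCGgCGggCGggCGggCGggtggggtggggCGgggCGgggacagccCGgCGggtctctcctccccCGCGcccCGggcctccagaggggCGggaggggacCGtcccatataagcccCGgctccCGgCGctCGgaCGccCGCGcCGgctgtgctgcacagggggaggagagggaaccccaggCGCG
SPARC: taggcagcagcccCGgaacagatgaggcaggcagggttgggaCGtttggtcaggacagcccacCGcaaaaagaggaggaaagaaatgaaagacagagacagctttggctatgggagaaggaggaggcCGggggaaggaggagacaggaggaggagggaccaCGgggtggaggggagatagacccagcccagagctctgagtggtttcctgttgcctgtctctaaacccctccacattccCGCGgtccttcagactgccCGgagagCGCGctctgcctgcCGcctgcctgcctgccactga
TGFBI: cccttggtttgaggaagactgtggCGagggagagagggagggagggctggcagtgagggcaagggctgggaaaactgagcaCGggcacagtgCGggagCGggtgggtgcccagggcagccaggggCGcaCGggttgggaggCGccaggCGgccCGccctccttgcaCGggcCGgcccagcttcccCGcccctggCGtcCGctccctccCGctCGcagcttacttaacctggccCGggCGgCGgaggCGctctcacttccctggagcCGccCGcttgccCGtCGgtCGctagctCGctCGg
PRRX1: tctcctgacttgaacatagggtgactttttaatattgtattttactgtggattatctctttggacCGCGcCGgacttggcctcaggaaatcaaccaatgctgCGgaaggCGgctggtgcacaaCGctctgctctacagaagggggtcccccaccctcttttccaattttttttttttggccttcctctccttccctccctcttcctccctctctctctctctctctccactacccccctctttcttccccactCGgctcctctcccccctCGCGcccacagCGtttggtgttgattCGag
YAP1: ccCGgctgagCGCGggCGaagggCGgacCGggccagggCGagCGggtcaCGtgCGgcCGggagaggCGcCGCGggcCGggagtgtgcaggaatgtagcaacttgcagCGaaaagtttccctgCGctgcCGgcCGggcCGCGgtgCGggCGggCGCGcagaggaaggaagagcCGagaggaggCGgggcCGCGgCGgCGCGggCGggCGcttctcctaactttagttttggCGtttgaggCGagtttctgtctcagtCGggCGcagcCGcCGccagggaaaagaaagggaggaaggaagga
The FN1 window held 38 CG dinucleotides, the TGFBI window 27 and the SPARC window 11, beside a median of 14 and quartiles of 4 and 28 over 35116 RefSeq windows of the same length. FN1 and SPARC had windows of unlike CG content. YAP1 held 40 and PRRX1 held 11, and the windows of NT5E, CD44 and VIM held 37, 18 and 10. The TEAD core CATTCC, the partner site of YAP1, was found on either strand in the SPARC and YAP1 windows and in 14% of all windows. The general E-box CANNTG was found once in each of the same windows and in 68.7% of all windows. Its form CACCTG, bound by SNAI and ZEB factors, was in none of these 8 windows (20.6% of all windows), nor was TATAAA (11.5%). A match says only that the letters are there, and the counts were made on another build (hg19), so no coordinate was carried between them.

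VIM encodes vimentin, the intermediate filament of mesenchymal cells. VIM in Be(2)-C stood at 328 and 334 CPM under DAC, 292 and 233 CPM under EPZ-6438, 409 and 422 CPM under both drugs, and 198 and 226 CPM under DMSO. Each treated group lay above DMSO, with both drugs highest. VIM rose by 0.64 ± 0.13 on the log2 scale under DAC (edgeR adjusted p = 0.00295) and by 0.97 ± 0.13 under both drugs (edgeR adjusted p = 8.21e-06). The DAC call ended without DMSO replicate 1 (adjusted p = 0.102). Under EPZ-6438 the log2 change was 0.31 ± 0.13 (edgeR adjusted p = 0.132), or 0.45 and called without EPZ-6438 replicate 2 (adjusted p = 0.0479).

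In IMR5-75, VIM stood at 746 and 602 CPM under DAC, 722 and 721 CPM under EPZ-6438, 716 and 765 CPM under both drugs, and 732 and 698 CPM under DMSO. Each treated group overlapped the DMSO range. The log2 change was -0.09 ± 0.12 under DAC, 0.01 ± 0.12 under EPZ-6438 and 0.05 ± 0.12 under both drugs (edgeR adjusted p = 0.639, 0.981 and 0.767). 

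The surface protein genes CD44 and NT5E had lower DMSO levels in IMR5-75 than in Be(2)-C. Under both drugs their log2 changes were larger in IMR5-75 by the test of the difference. For CD44 that difference was -0.92 ± 0.28 (Be(2)-C minus IMR5-75, edgeR adjusted p = 0.0395), and the call ended when any 1 of 6 of the 8 libraries was left out (adjusted p up to 0.181). CD44 encodes the hyaluronan receptor. CD44 in Be(2)-C stood at 27.0 and 26.1 CPM under DAC, 32.9 and 25.8 CPM under EPZ-6438, 34.2 and 34.3 CPM under both drugs, and 20.8 and 23.0 CPM under DMSO. All treated libraries lay above DMSO, and the combination alone was called, at 0.64 ± 0.16 on the log2 scale (edgeR adjusted p = 0.00445), a call that ended without DMSO replicate 1 (adjusted p = 0.0791).

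In IMR5-75, CD44 stood at 4.11 and 3.74 CPM under DAC, 2.21 and 2.05 CPM under EPZ-6438, 6.90 and 5.22 CPM under both drugs, and 2.29 and 1.77 CPM under DMSO. The EPZ-6438 libraries lay within the DMSO range, and the DAC and combination libraries lay above it. CD44 rose by 0.94 ± 0.25 under DAC (edgeR adjusted p = 0.00614; without DMSO replicate 2, 0.0725) and by 1.56 ± 0.23 under both drugs (edgeR adjusted p = 1.42e-05).

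NT5E encodes CD73, an ectoenzyme that makes adenosine from AMP and a marker of mesenchymal stromal cells. NT5E in Be(2)-C stood at 145 and 139 CPM under DAC, 190 and 220 CPM under EPZ-6438, 271 and 245 CPM under both drugs, and 145 and 143 CPM under DMSO. The DAC libraries overlapped DMSO, while the EPZ-6438 and combination libraries lay above it. NT5E rose by 0.51 ± 0.11 under EPZ-6438 (edgeR adjusted p = 0.00408) and by 0.84 ± 0.11 under both drugs (edgeR adjusted p = 7.63e-06). The EPZ-6438 call ended without DMSO replicate 1 (adjusted p = 0.0639), DMSO replicate 2 (adjusted p = 0.0584) or EPZ-6438 replicate 2 (adjusted p = 0.0715).

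In IMR5-75, NT5E stood at 13.2 and 13.3 CPM under DAC, 7.02 and 6.06 CPM under EPZ-6438, 24.5 and 23.4 CPM under both drugs, and 3.46 and 3.11 CPM under DMSO. The 4 groups did not overlap. NT5E was the only one of the 10 genes called under all 3 treatments in IMR5-75, with log2 changes of 2.01 ± 0.17 under DAC, 0.99 ± 0.18 under EPZ-6438 and 2.86 ± 0.16 under both drugs (edgeR adjusted p = 7.97e-09, 0.00642 and 1.24e-11). The EPZ-6438 call ended without DMSO replicate 2 (adjusted p = 0.124) or EPZ-6438 replicate 1 (adjusted p = 0.101).

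Among the regulators, PRRX1 and YAP1 were almost silent in Be(2)-C. PRRX1 encodes a homeodomain factor of limb and neural crest mesenchyme. PRRX1 in Be(2)-C had 0 and 2 counts under DAC, 3 and 2 counts under EPZ-6438, 3 and 4 counts under both drugs, and 1 and 0 counts under DMSO. No change was detectable at this depth, with a ratio of both drugs to DMSO of 7.39 and a 95% counting interval of 0.949 to 333. In IMR5-75, PRRX1 stood at 140 and 156 CPM under DAC, 117 and 138 CPM under EPZ-6438, 195 and 162 CPM under both drugs, and 110 and 71.2 CPM under DMSO. All treated IMR5-75 libraries lay above both DMSO libraries, which were far apart. PRRX1 rose by 0.71 ± 0.17 under DAC (edgeR adjusted p = 0.00236; without DMSO replicate 2, 0.0835) and by 0.98 ± 0.17 under both drugs (edgeR adjusted p = 5.73e-05). Under EPZ-6438 the log2 change was 0.50 ± 0.17 (edgeR adjusted p = 0.135), and it was 0.86 and called without DMSO replicate 1 (adjusted p = 0.0135).

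YAP1 encodes the Hippo-pathway coactivator that works through TEAD factors. YAP1 in Be(2)-C had 2 and 6 counts under DAC, 7 and 8 counts under EPZ-6438, 13 and 5 counts under both drugs, and 6 and 3 counts under DMSO, with no call in any treatment. In IMR5-75, YAP1 stood at 37.7 and 40.3 CPM under DAC, 42.8 and 45.2 CPM under EPZ-6438, 37.0 and 28.4 CPM under both drugs, and 53.9 and 45.4 CPM under DMSO. Every treated IMR5-75 library lay below both DMSO libraries, the opposite side to the other called genes of this line. YAP1 fell by 0.61 on the log2 scale under both drugs (SE 0.16, edgeR adjusted p = 0.00425). That call ended without DMSO replicate 1 (adjusted p = 0.0993) or combination replicate 2 (adjusted p = 0.128).

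SNAI2 encodes the zinc-finger repressor Slug. SNAI2 in Be(2)-C stood at 12.1 and 11.1 CPM under DAC, 12 and 6.76 CPM under EPZ-6438, 10.7 and 11.5 CPM under both drugs, and 9.79 and 10.6 CPM under DMSO, with no call. In IMR5-75, SNAI2 stood at 21.5 and 20.5 CPM under DAC, 19.7 and 19.7 CPM under EPZ-6438, 29.7 and 27.3 CPM under both drugs, and 17.8 and 12.4 CPM under DMSO. All treated IMR5-75 libraries lay above DMSO, with both drugs highest. SNAI2 rose by 0.91 ± 0.19 under both drugs (edgeR adjusted p = 0.000486). Under DAC the log2 change of SNAI2 was 0.47 ± 0.19 (edgeR adjusted p = 0.0646), which became a call without DMSO replicate 1 (adjusted p = 0.0198), with no filter on low counts (adjusted p = 0.0385) or with IMR5-75 fitted alone (adjusted p = 0.0466).

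TWIST1, a basic helix-loop-helix factor that cooperates with MYCN in neuroblastoma, moved in opposite directions in the lines under both drugs. TWIST1 in Be(2)-C stood at 94.5 and 99.4 CPM under DAC, 107 and 115 CPM under EPZ-6438, 101 and 101 CPM under both drugs, and 153 and 142 CPM under DMSO. All 6 treated libraries lay below both DMSO libraries. TWIST1 fell by 0.61 on the log2 scale under DAC, by 0.41 under EPZ-6438 and by 0.55 under both drugs (SE 0.13 each, edgeR adjusted p = 0.00607, 0.0469 and 0.00377). The DAC call ended without DMSO replicate 1 (adjusted p = 0.0887) or DAC replicate 1 (adjusted p = 0.0627), and the EPZ-6438 call ended without any of its 4 libraries (adjusted p = 0.265 without DMSO replicate 1, 0.124 without DMSO replicate 2, 0.188 without EPZ-6438 replicate 1 and 0.0827 without EPZ-6438 replicate 2).

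In IMR5-75, TWIST1 stood at 56.2 and 54.6 CPM under DAC, 48.8 and 46.0 CPM under EPZ-6438, 60.3 and 71.8 CPM under both drugs, and 39.95 and 55.3 CPM under DMSO. Only the combination libraries lay wholly above DMSO. TWIST1 rose by 0.47 ± 0.13 under both drugs (edgeR adjusted p = 0.00603), a call that ended without DMSO replicate 1 (adjusted p = 0.104) or combination replicate 2 (adjusted p = 0.059). Under DAC the log2 change of TWIST1 was 0.22 ± 0.13 (edgeR adjusted p = 0.222), which became 0.46 and a call without DMSO replicate 2 (adjusted p = 0.028).

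The combination was next set against each drug alone, which asks what the second drug added. In Be(2)-C, both drugs differed from DAC in 4 of the 10 genes, against 5.44% of all tested genes, and from EPZ-6438 in 4 genes, against 4.21%. FN1 was higher under both drugs by 2.01 ± 0.15 against DAC and by 1.82 ± 0.14 against EPZ-6438 on the log2 scale, and SPARC by 1.03 ± 0.12 and 1.45 ± 0.12 (edgeR adjusted p of at most 3.07e-05 for these 4 values). NT5E was higher than under DAC by 0.86 ± 0.11 (edgeR adjusted p = 7.65e-05), and VIM was higher than under EPZ-6438 by 0.66 ± 0.12 (edgeR adjusted p = 0.00248; without EPZ-6438 replicate 2, 0.0598). The fourth call in either comparison was TGFBI. Against DAC its log2 difference was 2.66 ± 0.65 (edgeR adjusted p = 0.0171), and the call ended without DAC replicate 1 at 2.01 (adjusted p = 0.184) or combination replicate 2 at 2.42 (adjusted p = 0.135), while without DAC replicate 2 the difference was 3.65. Against EPZ-6438, with 2 counts in that group, the ratio was 12.6 with a counting interval of 3.13 to 110 (edgeR adjusted p = 0.00754), and the call ended without EPZ-6438 replicate 1 (adjusted p = 0.0536), EPZ-6438 replicate 2 (adjusted p = 0.066) or combination replicate 2 (adjusted p = 0.0725).

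In IMR5-75, both drugs differed from DAC in 2 genes, against 1.94% of all tested genes, and from EPZ-6438 in 9 genes, against 37.6%. The genes higher than under DAC were TGFBI by 1.91 ± 0.22 and NT5E by 0.85 ± 0.13 on the log2 scale (edgeR adjusted p = 0.00015 and 0.00164). FN1 and SPARC were at 0.37 ± 0.13 and 0.15 ± 0.11 against DAC in this line (edgeR adjusted p = 0.166 and 0.534). Against EPZ-6438, TGFBI had a ratio of 173 with a counting interval of 58.9 to 842, or 86.4 (29.4 to 420) without EPZ-6438 replicate 2 and at least 86.6-fold without replicate 1, against 3 counts over the group. NT5E was higher by 1.87 ± 0.14, FN1 by 0.90 ± 0.13 and SPARC by 0.48 ± 0.11, and CD44 was at 6.90 and 5.22 CPM under both drugs, against 2.21 and 2.05 CPM under EPZ-6438 (edgeR adjusted p of at most 0.00123 for these 5 genes). 

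The other 4 calls against EPZ-6438 in IMR5-75 each depended on single libraries. PRRX1 was at 0.48 ± 0.16 (edgeR adjusted p = 0.0241) and lost its call without combination replicate 1 (adjusted p = 0.146) or EPZ-6438 replicate 1 (adjusted p = 0.168), and with IMR5-75 fitted alone (adjusted p = 0.0507). SNAI2 was at 0.53 ± 0.18 (edgeR adjusted p = 0.0273) and lost it without any of the 4 libraries (adjusted p = 0.0997 and 0.0504 without combination replicates 1 and 2, 0.0933 and 0.0998 without EPZ-6438 replicates 1 and 2). TWIST1 was at 0.48 ± 0.13 (edgeR adjusted p = 0.00755) and lost it without combination replicate 2 (adjusted p = 0.0773) or EPZ-6438 replicate 2 (adjusted p = 0.0501). YAP1 was at -0.43 ± 0.16 (edgeR adjusted p = 0.0427) and lost it without combination replicate 2 (adjusted p = 0.449) or either EPZ-6438 library (adjusted p = 0.126 without replicate 1 and 0.243 without replicate 2), with DESeq2 size factors (adjusted p = 0.0605) and in the DESeq2 Wald test (adjusted p = 0.0777).

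Whether the drugs together did more than their separate changes add up to was tested as an interaction on the log2 scale. In Be(2)-C, FN1 changed by 3.19 under both drugs, beside a sum of 2.55 for the single drugs, and SPARC by 1.85 beside 1.22. The excess was 0.64 ± 0.22 for FN1 and 0.63 ± 0.17 for SPARC (edgeR adjusted p = 0.481 and 0.28). By edgeR, 0 of the 10 genes were called, against 0.257% of all tested genes, and DESeq2 also called 0. At an unadjusted p under 0.05, 5 genes passed (FN1, SPARC, TGFBI, NT5E and TWIST1), beside 7.53% of all tested genes. The excess was 0.36 ± 0.15 for NT5E and 0.47 ± 0.18 for TWIST1, whose decrease under both drugs was smaller than the sum of its single-drug decreases. For TGFBI it was 3.58 ± 1.35 (edgeR adjusted p = 0.556). That value rests on 4 counts under DAC, 2 under EPZ-6438, 24 under both drugs and 4 under DMSO.

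In IMR5-75 the excess was 0.38 ± 0.18 for FN1, -0.01 ± 0.15 for SPARC, -0.14 ± 0.22 for NT5E and 0.56 ± 0.35 for CD44. By edgeR, 0 of the 10 genes were called, against 0.0251% of all tested genes, and 0 passed an unadjusted p under 0.05, beside 6.93% of all tested genes. DESeq2 called 0 as well and left 4 of the 10 without an adjusted p. With 2 libraries a group, the standard errors bound these excesses only loosely.

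**Figure D3:**
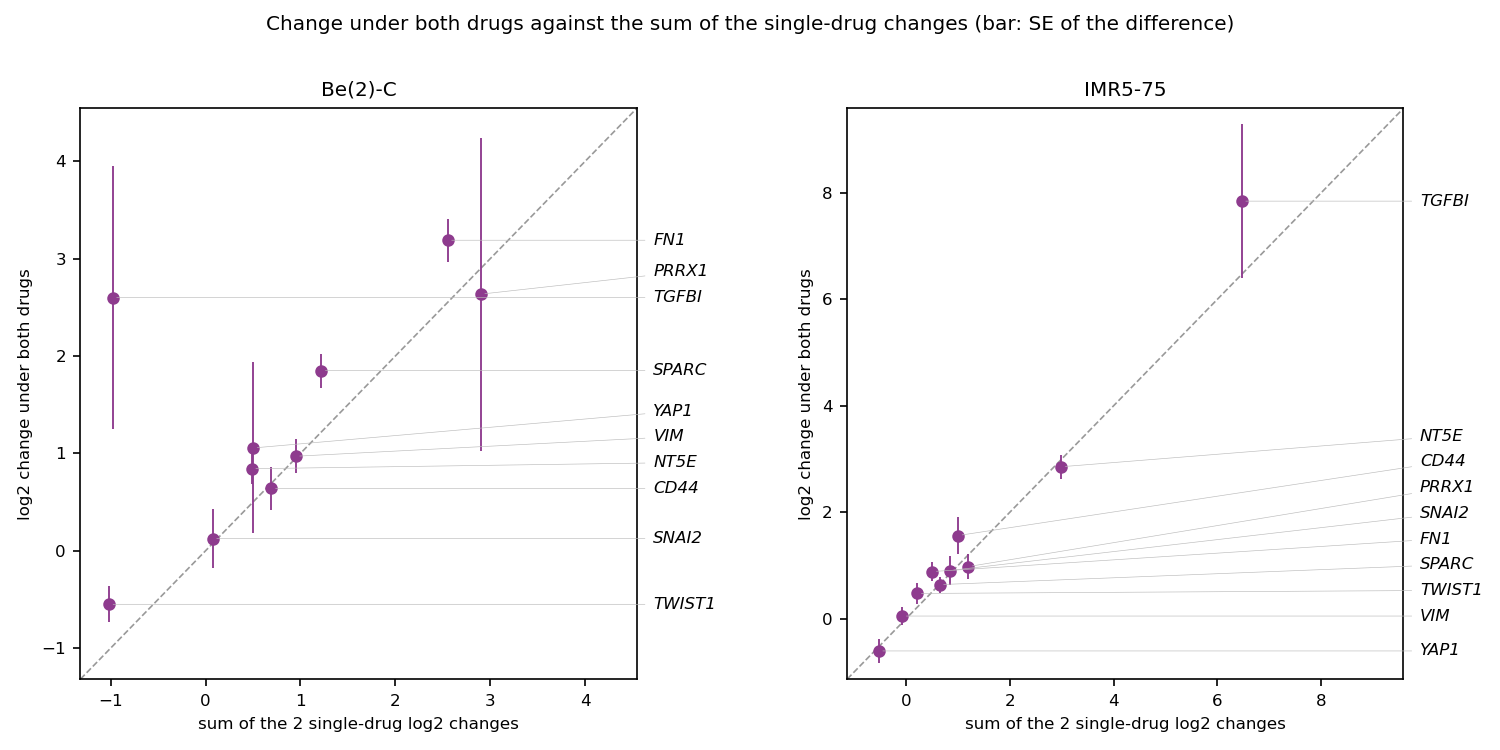
Log2 change under both drugs (vertical axis) against the sum of the log2 changes under each drug alone (horizontal axis) for the 10 genes in Be(2)-C and IMR5-75, with bars for the SE of the difference and a dashed line where the values are equal. FN1 and SPARC lie above the line in Be(2)-C by 0.64 and 0.63, and TGFBI lies above it by 3.58, resting on 4 DMSO counts. Most IMR5-75 genes lie within a bar of the line, with TGFBI there resting on 2 DMSO counts.

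The lines were compared directly by testing the difference of their log2 changes, Be(2)-C minus IMR5-75. For DAC, 4 of the 10 genes differed, against 6.19% of all tested genes. For EPZ-6438, 1 gene differed, against 1.19%, and for both drugs 7 genes differed, against 11.1%. FN1 changed more in Be(2)-C under EPZ-6438 (1.38 ± 0.21) and under both drugs (2.30 ± 0.21), and SPARC did so under both drugs (1.21 ± 0.16; edgeR adjusted p = 0.00189, 8.97e-08 and 2.23e-05). For FN1 under DAC the difference was 0.67 ± 0.21 (edgeR adjusted p = 0.0677), called without IMR5-75 DMSO replicate 2 (adjusted p = 0.0373) or with no filter on low counts (adjusted p = 0.0335). VIM changed more in Be(2)-C under DAC by 0.73 ± 0.18 and under both drugs by 0.92 ± 0.18 (edgeR adjusted p = 0.012 and 0.00113). NT5E changed more in IMR5-75, with differences of -2.03 ± 0.20 under DAC and -2.01 ± 0.19 under both drugs (edgeR adjusted p = 4.69e-07 and 2.49e-07). TWIST1 differed by -0.83 ± 0.19 and -1.02 ± 0.19 (edgeR adjusted p = 0.00728 and 0.000722). The starting levels differed as well, with FN1, SPARC and VIM lower and NT5E and TWIST1 higher in Be(2)-C under DMSO, and the part of the starting level was not tested. Mean FN1 under DMSO and both drugs was 10.2 and 92.9 CPM in Be(2)-C, and 159 and 294 CPM in IMR5-75. In the same order, SPARC was at 17.0, 61.2, 176 and 274 CPM, and NT5E at 144, 258, 3.29 and 23.9 CPM. For FN1, SPARC and NT5E the larger step in CPM was thus in the other line. VIM, at 212, 416, 715 and 740 CPM, kept its order.

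Lists of other genes, also chosen with earlier results of these data known, place these changes. Of 23 tested non-collagen matrix genes (26 listed), 10 rose and 1 fell under both drugs in Be(2)-C, where 13.2% of all tested genes rose and 10.4% fell, and 11 rose and 2 fell in IMR5-75, where 25.7% rose and 20.4% fell. The list's median log2 change was 0.71 in Be(2)-C and 0.76 in IMR5-75, beside 0.05 and 0.03 over all tested genes. FBLN2, which encodes the matrix protein fibulin-2, rose by 2.91 ± 0.28 in Be(2)-C and by 2.81 ± 0.18 in IMR5-75 (edgeR adjusted p = 2.11e-07 and 8.25e-11). FSTL1, a secreted glycoprotein of the SPARC family, rose in Be(2)-C to 33.0 ± 0.61 CPM under both drugs, against 8.13 ± 2.0 CPM under DMSO (SD, n = 2; edgeR adjusted p = 9.64e-09). TNC, which encodes tenascin-C, a partner of fibronectin in the matrix, rose in IMR5-75 to 55.0 ± 3.1 CPM under both drugs, against 16.7 ± 1.3 CPM under DMSO (SD, n = 2; edgeR adjusted p = 7.79e-09). DCN, which encodes the collagen-binding proteoglycan decorin, fell in Be(2)-C under DAC by 0.60 (SE 0.14) and under EPZ-6438 by 1.30 (SE 0.14; edgeR adjusted p = 0.00994 and 1.21e-05). DCN was also called lower in Be(2)-C under both drugs. In IMR5-75 it was called higher under DAC and under both drugs, from 5 DMSO counts.

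Fibronectin needs receptors and its matrix needs crosslinkers. Of 11 tested integrins and syndecan that bind fibronectin (12 listed), 0 were called under DAC, 1 under EPZ-6438 and 4 under both drugs in Be(2)-C, and 6, 1 and 6 in IMR5-75, all of them higher. Over all tested genes, 3.73%, 5.35% and 13.2% were called higher in Be(2)-C and 19.9%, 1.63% and 25.7% in IMR5-75, beside 0%, 9.09% and 36.4% and then 54.5%, 9.09% and 54.5% of this list. ITGA3 was the one gene called under EPZ-6438 in either line, and under both drugs it rose by 1.79 ± 0.30 in Be(2)-C and by 3.49 ± 0.24 in IMR5-75 (edgeR adjusted p = 0.00017 and 3.57e-10). Under DMSO, ITGA4, a subunit of a leukocyte and neural crest fibronectin receptor, stood at 0.365 CPM in Be(2)-C and 94.7 CPM in IMR5-75 (edgeR adjusted p = 2.55e-16). Of 20 tested matrix proteases, inhibitors and crosslinkers (22 listed), 10 rose and 1 fell under both drugs in Be(2)-C, and 12 rose and 4 fell in IMR5-75. That is 50% higher and 5% lower in Be(2)-C, beside 13.2% and 10.4% of all tested genes, and 60% higher and 20% lower in IMR5-75, beside 25.7% and 20.4%. LOXL4, a lysyl oxidase that crosslinks collagen, was called higher under all 3 treatments in both lines, by 2.18 ± 0.27 under both drugs in Be(2)-C and by 2.44 ± 0.19 in IMR5-75 (edgeR adjusted p = 4.69e-06 and 2.54e-09). Other lysyl oxidase genes went both ways. LOX was called higher under both drugs in Be(2)-C and lower in IMR5-75. LOXL2 was called lower under DAC in both lines and under both drugs in IMR5-75. LOXL1 was called higher under both drugs in both lines, and LOXL3 in IMR5-75. ADAMTS1, a secreted protease of proteoglycans, fell under both drugs in Be(2)-C by 0.95 (SE 0.11, edgeR adjusted p = 2.91e-06).

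Of 19 tested TGF-beta pathway genes, 7 rose and 0 fell under both drugs in Be(2)-C, and 7 rose and 2 fell in IMR5-75, with medians of 0.47 and 0.23 on the log2 scale. The shares higher were 36.8% in either line, beside 13.2% of all tested genes in Be(2)-C and 25.7% in IMR5-75. The shares lower were 0% in Be(2)-C and 10.5% in IMR5-75, beside 10.4% and 20.4% of all tested genes. The 2 genes lower in IMR5-75 were SMAD3 and TGIF1. The ligand gene TGFB3 rose by 1.73 ± 0.19 in Be(2)-C and by 1.91 ± 0.18 in IMR5-75, and TGFB2 rose by 2.63 ± 0.20 in IMR5-75 (edgeR adjusted p = 1.08e-06, 4.01e-08 and 2.03e-09). SMAD7, which encodes an inhibitor of the pathway, rose in Be(2)-C by 0.78 ± 0.13 (edgeR adjusted p = 0.000115). Of 18 tested YAP and TEAD pathway genes (20 listed), 5 rose and 1 fell under both drugs in Be(2)-C, and 2 rose and 2 fell in IMR5-75, with medians of 0.24 and -0.08. The share higher was 27.8% in Be(2)-C, beside 13.2% of all tested genes, and 11.1% in IMR5-75, beside 25.7%. AXL, a receptor kinase of mesenchymal-type cells, stood at 5.41 ± 0.22 CPM under both drugs in Be(2)-C, against 0.365 ± 0.13 CPM under DMSO (SD, n = 2; edgeR adjusted p = 2.45e-06). In IMR5-75, TEAD4, a DNA-binding partner of YAP1, fell by 0.88 under both drugs (SE 0.18), and WWTR1, which encodes the YAP1 paralog TAZ, rose by 2.72 ± 0.61 from 7 DMSO counts (edgeR adjusted p = 0.000396 and 0.000932). Under DMSO, 11 of these 18 genes were lower and 2 higher in Be(2)-C than in IMR5-75, where 63.2% of all tested genes were called in either direction, a share near that of the list.

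**Figure D4:**
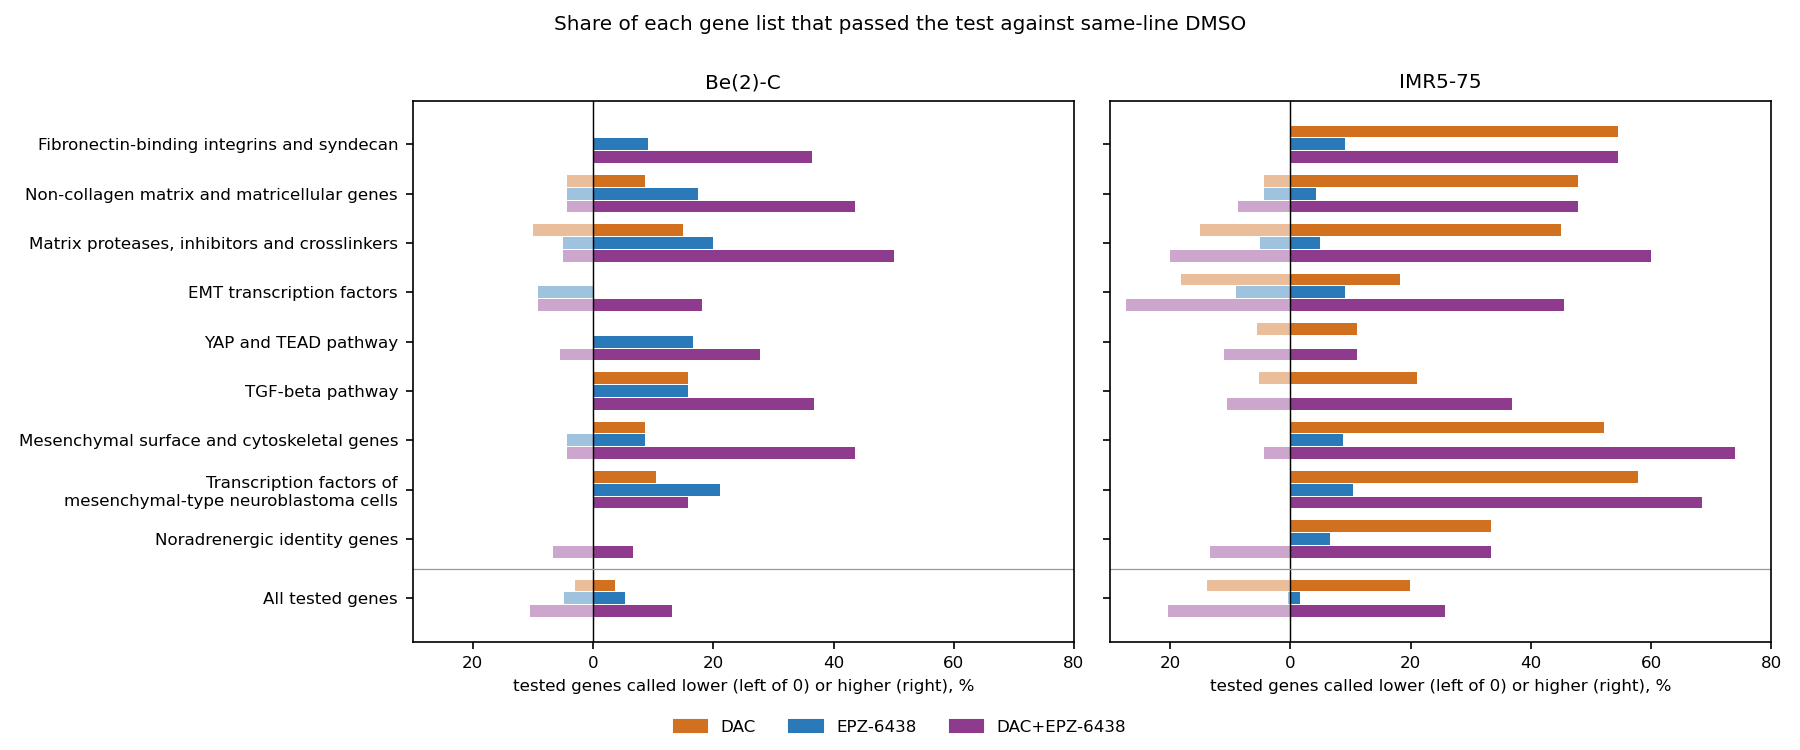
Percent of tested genes in each of 9 lists that passed an adjusted p under 0.05 against DMSO of the same line, higher to the right of 0 and lower (pale) to the left, for DAC, EPZ-6438 and both drugs, with all tested genes in the bottom row. Under both drugs, 43.5% of the matrix list rose in Be(2)-C and 47.8% in IMR5-75, beside 13.2% and 25.7% of all tested genes.

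Genes of the mesenchymal state were followed under both drugs, where 13.2% of all tested genes rose and 10.4% fell in Be(2)-C, and 25.7% rose and 20.4% fell in IMR5-75. No test compared the lists between the lines. Of 23 tested mesenchymal surface and cytoskeletal genes (24 listed), 10 rose and 1 fell under both drugs in Be(2)-C, and 17 rose and 1 fell in IMR5-75, with medians of 0.26 and 1.05 on the log2 scale. The IMR5-75 median was 1.24 with genes at 0 in a group set at their bound against 3 counts. Such genes were left out of that median where neither group held over 3 counts. The shares higher were 43.5% in Be(2)-C and 73.9% in IMR5-75. TPM2, a tropomyosin of contractile filaments, rose by 1.65 ± 0.21 in Be(2)-C and by 3.53 ± 0.19 in IMR5-75 (edgeR adjusted p = 7.36e-06 and 8.92e-12). Of 19 tested transcription factors of mesenchymal-type neuroblastoma cells (23 listed), 3 rose and 0 fell in Be(2)-C, and 13 rose and 0 fell in IMR5-75, with medians of 0.27 and 0.89. The shares higher were 15.8%, near that of all tested genes, in Be(2)-C and 68.4% in IMR5-75. NOTCH2, a receptor of the Notch pathway, whose activation can move neuroblastoma cells to the mesenchymal state, was called higher under all 3 treatments in both lines, and under both drugs it rose by 1.95 ± 0.32 in Be(2)-C and by 2.12 ± 0.26 in IMR5-75 (edgeR adjusted p = 0.000124 and 1.46e-06). Of 11 tested epithelial-mesenchymal transition factors (14 listed), 2 rose and 1 fell in Be(2)-C (18.2% and 9.09%), and 5 rose and 3 fell in IMR5-75 (45.5% and 27.3%). PRRX2, the paralog of PRRX1, rose under both drugs by 1.73 ± 0.38 in Be(2)-C and by 4.17 ± 0.52 in IMR5-75, where DMSO held 4 counts, while ZEB1 fell by 0.78 in IMR5-75 (SE 0.14; edgeR adjusted p = 0.00196, 1.57e-06 and 0.00011).

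Of 15 tested noradrenergic identity genes, 1 rose and 1 fell under both drugs in Be(2)-C, and 5 rose and 2 fell in IMR5-75, with medians of 0.00 and 0.26 on the log2 scale. The shares higher and lower were 6.67% each in Be(2)-C, below the 13.2% and 10.4% of all tested genes, and 33.3% and 13.3% in IMR5-75, near the 25.7% and 20.4% of all tested genes. HAND2, a transcription factor of sympathetic neuron development, fell in Be(2)-C to 625 ± 2.3 CPM under both drugs, against 800 ± 9.07 CPM under DMSO (SD, n = 2; edgeR adjusted p = 0.0303). DBH, the enzyme that makes noradrenaline, rose in IMR5-75 to 14.1 ± 0.30 CPM under both drugs, against 1.51 ± 0.47 CPM under DMSO (SD, n = 2; edgeR adjusted p = 1.61e-08).

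Genes of like pattern were sought by the correlation of log2 CPM over the 16 libraries after the mean of each line was subtracted, over the 12644 genes whose mean log2 CPM was 1 or more. This is a description, since the libraries share treatments and lines. For FN1 the highest were GM2A (r = 0.960), DFNA5 (0.957), SPARC (0.955), GPR176 (0.946) and IL17RD (0.946). Under both drugs GM2A rose by 1.18 ± 0.14 in Be(2)-C, but by only 0.16 ± 0.12 in IMR5-75, uncalled (edgeR adjusted p = 0.292). DFNA5, SPARC, GPR176 and IL17RD were called higher under both drugs in either line. For SPARC they were CNIH3 (0.971), FN1 (0.955), MXRA8 (0.950), LAYN (0.950) and GPER (0.944), so FN1 and SPARC stood among the 5 nearest genes of each other. For TGFBI they were COL9A2 (0.974), PLAT (0.968), CYB5R1 (0.964), COL22A1 (0.962) and TUBA4A (0.961). COL9A2, a chain of cartilage collagen IX, stood in IMR5-75 at 19.6 ± 2.5 CPM under DAC, 1.18 ± 0.34 CPM under EPZ-6438, 30.0 ± 2.8 CPM under both drugs and 0.863 ± 0.031 CPM under DMSO (SD, n = 2), which like TGFBI was near the DMSO level under EPZ-6438 alone.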

How the data were processed

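Ribosome-depleted total RNA of 16 libraries was sequenced with 50-base single-end reads from a directional kit, per the labels' protocols. The deposited table holds raw counts per gene symbol, and the submitters' processing notes name TopHat2 2.0.5, HTSeq 0.5.3p9, DESeq2 and hg19. Neither the annotation nor the strand setting is stated in the sources used here, and reads shared with overlapping genes (ATIC, VIM-AS1, CD44-AS1) are uncertain.

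Counts were fitted in R 4.3.3 with edgeR 4.0.16 (filterByExpr, TMM, 8 group means, 8 residual degrees of freedom, common biological variation 9.88%, quasi-likelihood test, Benjamini-Hochberg adjustment over 15967 genes). DESeq2 1.42.0 was an alternative. The 10 genes and the lists were chosen with earlier results of these data known. Some genes of the noradrenergic lists are not reported here, and counts and sums over those lists leave them out. All 10 genes are named, with up to 3 called genes of smallest adjusted p per list and comparison and 5 genes of like pattern for FN1, SPARC and TGFBI. Some further called genes are named where a list went both ways. Floors (3 counts) and 95% exact binomial intervals cover counting error only. The fit was tested on simulated data. Alternatives were DESeq2 size factors, no filter, a replicate block, lines fitted alone, the DESeq2 Wald test and leaving out each library. Replicate pairs differed beyond sampling noise.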

Additional observations from a re-analysis of the deposited data

Results flagged for a closer look

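The change against DMSO differed between the lines, by a test of the difference itself (Be(2)-C minus IMR5-75, edgeR quasi-likelihood test with Benjamini-Hochberg adjustment), in 12 instances. Under DAC these were VIM at 0.73 ± 0.18 (SE, log2 scale; adjusted p = 0.012), NT5E at -2.03 ± 0.20 (adjusted p = 4.69e-07), TWIST1 at -0.83 ± 0.19 (adjusted p = 0.00728) and TGFBI at -6.00 ± 1.39 (adjusted p = 0.00898). The VIM difference under DAC lost its call without Be(2)-C DMSO replicate 1 (adjusted p = 0.0963), IMR5-75 DMSO replicate 1 (adjusted p = 0.0663) or IMR5-75 DAC replicate 2 (adjusted p = 0.0858).

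Under EPZ-6438 the one instance was FN1 at 1.38 ± 0.21 (adjusted p = 0.00189). Under both drugs they were FN1 at 2.30 ± 0.21 (adjusted p = 8.97e-08), SPARC at 1.21 ± 0.16 (adjusted p = 2.23e-05), VIM at 0.92 ± 0.18 (adjusted p = 0.00113), NT5E at -2.01 ± 0.19 (adjusted p = 2.49e-07), TWIST1 at -1.02 ± 0.19 (adjusted p = 0.000722), TGFBI at -5.25 ± 1.29 (adjusted p = 0.00957) and CD44 at -0.92 ± 0.28 (adjusted p = 0.0395).

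CD44 lost this call without Be(2)-C DMSO replicate 1 (adjusted p = 0.0657) or 2 (0.122), Be(2)-C combination replicate 1 (0.0891) or 2 (0.0757), IMR5-75 DMSO replicate 2 (0.181) or IMR5-75 combination replicate 1 (0.133). For YAP1 and SNAI2 under both drugs the differences were 1.66 ± 0.61 and -0.78 ± 0.29 (adjusted p = 0.0868 and 0.0899), called without Be(2)-C combination replicate 2 for YAP1 (adjusted p = 0.0462) and without IMR5-75 DMSO replicate 1 for SNAI2 (adjusted p = 0.023). The TGFBI differences rest on 4 counts under DMSO in Be(2)-C and 2 in IMR5-75. Without Be(2)-C DMSO replicate 1 they were -5.08 under DAC and -4.33 under both drugs and were no longer called (adjusted p = 0.319 and 0.305). The DAC difference of TGFBI was -5.38 without Be(2)-C DAC replicate 1 and -6.99 without replicate 2. No group of 2 libraries could be searched for a library far from the others.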

How the results depend on the processing

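The number of the 10 genes called kept within 1.5 times under each alternative other than leaving out a library, except EPZ-6438 against DMSO in IMR5-75, which called 2 in place of 1 with no filter on low counts (PRRX1 added, adjusted p = 0.0198). No called value changed sign. Replicate numbers did not pair the libraries (correlations of deviations -0.25 to 0.136). With the replicate number as a block, EPZ-6438 against DMSO in Be(2)-C called 2 genes in place of 3 (TWIST1 lost, adjusted p = 0.077), and both drugs against EPZ-6438 in IMR5-75 called 8 in place of 9 (YAP1 lost, adjusted p = 0.0639), with the other counts of the 10 genes as before. With no filter, SNAI2 was called for the line difference under both drugs (adjusted p = 0.0227).

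Leaving out 1 library gave, in Be(2)-C against DMSO, 2 to 4 genes for DAC (4 with all libraries), 1 to 2 for EPZ-6438 (3) and 6 to 7 for both drugs (7), and in IMR5-75 4 to 7 (6), 0 to 2 (1) and 7 to 9 (9). Both drugs called 3 to 4 against DAC (4) and 2 to 4 against EPZ-6438 (4) in Be(2)-C, and 2 (2) and 6 to 7 (9) in IMR5-75. Interactions gave 0 in either line. The line differences gave 2 to 5 for DAC (4), 1 for EPZ-6438 (1) and 5 to 8 for both drugs (7), and the DMSO comparison of the lines 8 to 9 (9). Over all tested genes, both drugs called 314 to 446 against DAC (869) and 278 to 547 against EPZ-6438 (672) in Be(2)-C, and 49 to 228 (309) and 3737 to 4846 (6005) in IMR5-75. The line differences over all tested genes gave 667 to 1019 for DAC (988), 48 to 225 for EPZ-6438 (190) and 1066 to 1542 for both drugs (1766), and the interactions 16 to 51 in Be(2)-C (41) and 1 to 10 in IMR5-75 (4). Such fits take the spread of a group left with 1 library from the other groups.

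Over all tested genes, no filter gave 740 calls in place of 316 for EPZ-6438 in IMR5-75, 541 in place of 309 for both drugs against DAC in IMR5-75, 109 in place of 41 and 84 in place of 4 for the interaction in Be(2)-C and in IMR5-75, and 425 in place of 190 for the line difference under EPZ-6438. The replicate block gave 703 in place of 1069 for DAC in Be(2)-C, and 188, 124 and 98 for the first, second and last of those IMR5-75 and line comparisons. IMR5-75 fitted alone gave 164 for both drugs against DAC and 1 for the interaction, and DESeq2 gave 14 for that interaction and 292 for the EPZ-6438 line difference. The causes were not tested. Depth limits TGFBI, PRRX1 and YAP1 in Be(2)-C, where libraries held 0 to 13 counts of them.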
